A study of Homo sapiens with 9 samples.

Results

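The replication-dependent core histone genes were followed through heat stress and recovery in HEK293T cells, an immortalised human line of embryonic kidney origin that carries the SV40 large T antigen. Members were the protein-coding genes whose current symbol begins with H2AC, H2BC, H3C or H4C and a number. There were 64 of them among the 60664 genes of the count table, comprising 17 H2A, 19 H2B, 13 H3 and 15 H4 genes, after 13 pseudogenes with such names were removed. Cells were left untreated (NC), held at 43 °C for 1 h (H1), or heated in the same way and then kept at 37 °C to recover. The recovery lasted 1 h in H1R1, 6 h in H1R6 and 18 h in H1R18. RNA-seq libraries from total RNA depleted of ribosomal RNA numbered 2 per condition, except for a single one at H1R18, all from the same wild-type line. Here H1 names a condition. Linker histone genes are written with a hyphen, as in H1-4. Nothing in the labels says that the paired libraries came from separate cultures, so p-values measure the spread between these libraries, which may be technical. H1R18 had no replicate of its own and was assumed to vary like the other conditions.

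Core histones H2A, H2B, H3 and H4 form the protein octamer around which DNA is wrapped. Replication-dependent members are transcribed mainly in S phase, when new DNA must be packaged, and lie in dense clusters. Their mRNAs normally end in a conserved stem-loop instead of a poly(A) tail. The stem-loop is bound by SLBP, and the U7 small nuclear ribonucleoprotein directs cleavage just after it. Each class is encoded by many gene copies, so the level of a class is a sum over members. Depletion of ribosomal RNA keeps mRNAs without a poly(A) tail, which poly(A) selection would lose.

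The stem-loops are shown because they are the shared end of these mRNAs and carry small differences between classes. A match to the histone stem-loop consensus followed the coding end in the GENCODE 29 transcripts (GRCh38) of 31 of the 64 members, against a match anywhere in 83 of 19684 protein-coding genes (0.422%). The transcripts of 32 of the other 33 members were annotated for at most 60 bases past the coding end, so no statement follows about their mRNAs. The distance from coding end to stem-loop ran from 22 to 67 bases, with a median of 36. There were 6 distinct sequences of 16 bases among the 31, given here with 5 flanking bases on each side, 5′ to 3′ on the gene's strand as DNA, with the stem-loop in capitals.
H3C10: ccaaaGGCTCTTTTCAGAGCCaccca
H2BC4: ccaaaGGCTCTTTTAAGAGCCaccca
H4C2: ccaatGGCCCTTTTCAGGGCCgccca
H4C15: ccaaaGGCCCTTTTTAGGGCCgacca
H2AC11: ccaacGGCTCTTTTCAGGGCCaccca
H3C6: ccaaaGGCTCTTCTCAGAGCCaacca
The form of H3C10 (chr6:27810516-27810531, plus strand) stood in 17 members of the H2A, H2B and H3 classes. That of H2BC4 (chr6:26123472-26123487, minus strand) stood in 4 members of H2B and H3. The form of H4C2 (chr6:26026901-26026916, minus strand) stood in 5 members and that of H4C15 (chr1:149860769-149860784, minus strand) in 3, all 8 of them H4 genes. The forms of H2AC11 (chr6:27133515-27133530, plus strand) and H3C6 (chr6:26225596-26225611, plus strand) stood in 1 member each.

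Promoters of 300 bases, from 250 before to 50 after the start, were taken from RefSeq (GRCh38.p14) and were found for 58 members, with the first listed start used where a gene had several. The window of H2BC11, the H2B gene with the highest CPM, overlaps that of H2AC11, the H2A gene with the highest CPM (neither corrected for length), which is transcribed the other way. H3C1 and H4C2 are shown as the leading members of their classes with the lowest H1R18 levels. Capitals mark TATAAA, read as TTTATA on the other strand, the pentamer CCAAT, there read as ATTGG, and the octamer ATTTGCAT, there read as ATGCAAAT. Both strands were searched, TATAAA can overlap its own reverse, and the pentamer can share end letters with the octamer.
H2BC11 (chr6:27132746-27133045, minus strand): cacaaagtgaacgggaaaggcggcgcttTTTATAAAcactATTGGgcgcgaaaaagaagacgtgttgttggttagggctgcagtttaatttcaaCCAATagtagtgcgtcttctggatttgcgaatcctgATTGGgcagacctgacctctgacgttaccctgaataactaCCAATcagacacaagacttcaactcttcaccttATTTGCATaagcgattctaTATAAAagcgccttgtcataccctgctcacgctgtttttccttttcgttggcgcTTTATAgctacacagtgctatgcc
H3C1 (chr6:26020201-26020500, plus strand): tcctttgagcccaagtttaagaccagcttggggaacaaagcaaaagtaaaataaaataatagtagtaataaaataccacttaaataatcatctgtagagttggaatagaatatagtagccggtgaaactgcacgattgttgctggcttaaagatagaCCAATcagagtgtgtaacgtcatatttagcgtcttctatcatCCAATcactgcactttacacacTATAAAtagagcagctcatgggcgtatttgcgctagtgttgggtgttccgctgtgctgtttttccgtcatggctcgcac
H4C2 (chr6:26027234-26027533, minus strand): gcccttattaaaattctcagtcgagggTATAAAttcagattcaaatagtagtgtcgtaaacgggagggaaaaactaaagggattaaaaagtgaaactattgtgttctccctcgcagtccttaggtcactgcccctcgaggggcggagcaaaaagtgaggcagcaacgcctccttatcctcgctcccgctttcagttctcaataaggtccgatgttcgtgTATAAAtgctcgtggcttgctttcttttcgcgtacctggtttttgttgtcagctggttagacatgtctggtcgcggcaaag
TATAAA, the sequence of a TATA box, stood on either strand in 39 of the 58 windows (67.2%). It stood in 3264 of 27305 windows of all genes with a listed promoter (12%). Not every match can be the TATA box of its gene. In H2AC8, H2BC4, H2BC14, H2BC17 and H3C6 the only match was on the opposite strand, 157 to 220 bases upstream. In H2BC6 and H4C16 the only match lay 189 and 250 bases upstream. CCAAT stood in 48 (82.8%), against 35.7% of all genes, and its share split by class. Every H2A, H2B and H3 window held it (16, 18 and 11 windows), whereas 3 of 13 H4 windows did. ATTTGCAT, the octamer element known from H2B promoters, stood in 26 (44.8%), against 1.8% of all genes. These were 11 H2A, 14 H2B and 1 H3 window, and none of the 13 H4 windows. The H3 window was that of H3C4, whose first listed start gives the same stretch of the genome as the window of H2AC7, so this window was counted under both classes for every motif. Windows of divergent H2A and H2B neighbours can overlap, and the same octamer was then counted in both. This held for H2AC1 and H2BC1, H2AC6 and H2BC4, H2AC7 and H2BC7, and H2AC8 and H2BC8. It also held for H2AC11 and H2BC11, H2AC14 and H2BC14, H2AC17 and H2BC17, and H2AC20 and H2BC21. Except for H2AC17, the octamer of an H2A window stood on the opposite strand. A match describes the letters of a window and was not tested as a binding site.

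Libraries held 3814195 to 6221613 counts each. Between 81.8% and 87.5% of the values above 0 in a library were even. Markers of HEK293T cells were present, with 9 of 10 listed genes passing the filter on low counts and a summed level of 549 to 741 CPM (counts relative to library size, per 1e6) over the 9 libraries. The gene that did not pass was LHX1. Of 11 markers of blood, endothelial, fibroblast and liver cells 3 passed, and their summed level was 53.9 to 78.5 CPM. Between the pair of NC libraries the members differed more than genes did in general, with a chi-square per degree of freedom of 4.27 over members and 2.14 over all genes on counts halved to read pairs. For H1, H1R1 and H1R6 the members gave 1.39 to 1.71. Throughout, CPM are scaled by TMM, log2 fold changes, their standard errors (SE) and adjusted p come from edgeR's quasi-likelihood test on all 21139 genes tested, and a gene is called at an adjusted p under 0.05.

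Of the 64 members, 53 passed the filter. The other 11 had at most 8 counts in any library. They were H3C3 (8), H2BC1, H2BC9 and H4C13 (6 each), H2BC14 and H3C8 (4 each), H2AC1, H4C6 and H4C7 (2 each), and H3C4 and H2AC15 (0). All exonic bases of H2AC15 are shared with H2BC15, and 96.6% of those of H3C4 with another annotated gene, and reads in shared bases were not counted. Without H1R18, 51 members passed. In NC, the H3 gene H3C2 had the highest level per length, 1989 CPM per kb of gene model. It was followed by H4C3 at 1393, H2BC12 at 1100, H4C4 at 1023 and H2AC20 at 729 CPM per kb. The lowest tested member, H2BC6, stood at 0.64 CPM per kb. Levels per length depend on the models, since 23 members have over 1000 exonic bases annotated.

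Members as a whole took 1.02% and 1.12% of the counts of the NC libraries. Their share was 0.764% and 0.782% in the H1 libraries and 0.413% and 0.429% in those of H1R1, then 0.85% and 0.854% in those of H1R6, and 0.333% in the H1R18 library. Summed over the 64 genes, the level was 10281 and 11147 CPM in NC, 7689 and 7914 CPM at H1, 4295 and 4497 CPM at H1R1, 8311 and 8396 CPM at H1R6, and 3263 CPM at H1R18. The sum was 72.8% of the NC mean at H1, 41% at H1R1, 78% at H1R6 and 30.5% at H1R18, so it was low at 1 h of recovery, higher at 6 h and lowest at 18 h. In these bulk libraries, fewer cells in S phase and less histone mRNA per cell cannot be told apart. CPM are relative to all counted RNA, so the amount per cell was not measured.

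**Figure D1:**
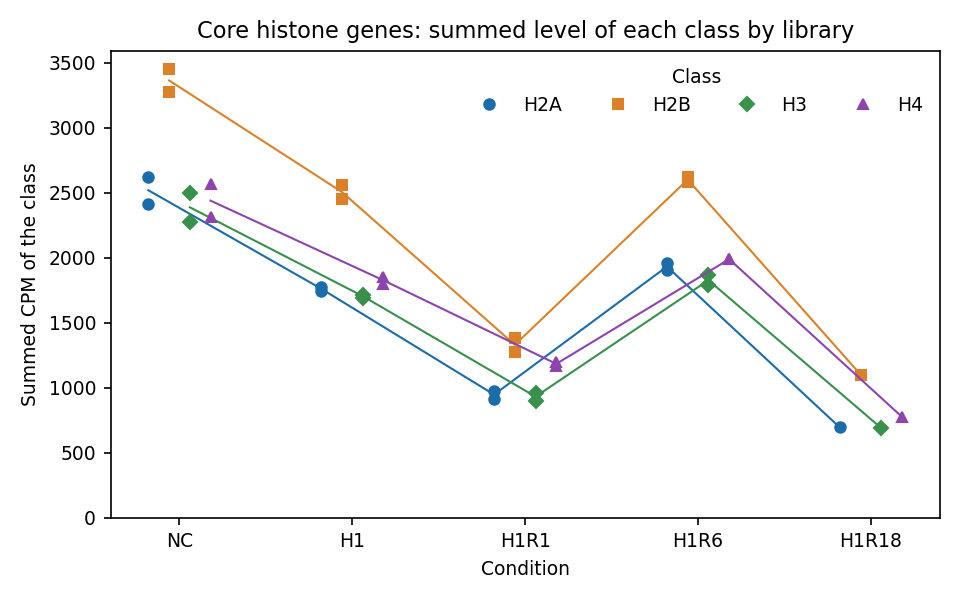
Summed CPM of the H2A (17), H2B (19), H3 (13) and H4 (15) genes in each library, with 1 point per library and lines through the condition means. All classes fall to H1R1, stand higher at H1R6 and are lowest in the single H1R18 library.

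The 3 H2A genes with the highest CPM, not corrected for length, repeated this course. H2AC11 measured 413 and 468 CPM in NC, 301 and 325 CPM at H1, 182 and 181 CPM at H1R1, 342 and 341 CPM at H1R6, and 150 CPM at H1R18. H2AC6 measured 366 and 377 CPM in NC, 245 and 270 CPM at H1, 109 and 124 CPM at H1R1, 220 and 224 CPM at H1R6, and 87.5 CPM at H1R18. H2AC20 measured 349 and 372 CPM in NC, 265 and 259 CPM at H1, 121 and 127 CPM at H1R1, 214 and 215 CPM at H1R6, and 99.6 CPM at H1R18. In all 3, levels were highest in NC and lowest at H1R18. At H1R6, H2AC6 and H2AC20 were still below H1, whereas H2AC11 was above it. The log2 fold change of H2AC11 over NC was -0.49 (SE 0.076) at H1, -1.28 (SE 0.079) at H1R1, -0.36 (SE 0.076) at H1R6 and -1.55 (SE 0.10) at H1R18, with edgeR adjusted p of 5.5e-05, 1e-13, 0.002 and 1.7e-12. At H1R1 H2AC6 changed by -1.67 (SE 0.085) and H2AC20 by -1.54 (SE 0.081).

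Among H2B genes, H2BC11 measured 563 and 613 CPM in NC, 448 and 503 CPM at H1, 199 and 209 CPM at H1R1, 496 and 456 CPM at H1R6, and 157 CPM at H1R18. H2BC12 measured 559 and 530 CPM in NC, 431 and 413 CPM at H1, 248 and 255 CPM at H1R1, 391 and 403 CPM at H1R6, and 155 CPM at H1R18. H2BC21, a gene of the chromosome 1 cluster, measured 408 and 420 CPM in NC, 308 and 332 CPM at H1, 137 and 165 CPM at H1R1, 290 and 275 CPM at H1R6, and 147 CPM at H1R18. The H1R18 level of H2BC21 lay between its H1R1 libraries, while those of H2BC11 and H2BC12 lay below theirs. H2BC11 changed by -0.31 (SE 0.074, edgeR adjusted p = 0.01) at H1 and by -1.53 (SE 0.078, edgeR adjusted p = 8.8e-16) at H1R1. H2BC12 changed by -1.81 (SE 0.097) at H1R18. H2BC11 and H2AC11, whose promoter windows overlap as shown above, stood at 34.7% and 41.2% of their NC means at H1R1 and at 26.7% and 34% at H1R18.

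The leading H3 genes differed most at H1R18. H3C2 measured 943 and 1090 CPM in NC, 710 and 720 CPM at H1, 403 and 423 CPM at H1R1, 768 and 809 CPM at H1R6, and 330 CPM at H1R18. H3C10 measured 763 and 785 CPM in NC, 602 and 620 CPM at H1, 255 and 289 CPM at H1R1, 540 and 557 CPM at H1R6, and 253 CPM at H1R18. H3C1 measured 217 and 240 CPM in NC, 154 and 141 CPM at H1, 91.9 and 93.3 CPM at H1R1, 175 and 182 CPM at H1R6, and 24.9 CPM at H1R18. H3C1 and H3C2 had the same share of their NC level at H1R1, 40.6% each, and 10.9% and 32.5% at H1R18. The log2 fold change of H3C2 over NC was -0.51 (SE 0.068) at H1, -1.30 (SE 0.07) at H1R1, -0.37 (SE 0.068) at H1R6 and -1.62 (SE 0.092) at H1R18, with edgeR adjusted p of 5.2e-06, 3.4e-15, 0.00054 and 3.3e-14. H3C10 changed by -1.51 (SE 0.071) at H1R1.

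For H4, H4C3 measured 547 and 581 CPM in NC, 444 and 462 CPM at H1, 322 and 308 CPM at H1R1, 429 and 433 CPM at H1R6, and 190 CPM at H1R18. H4C4 measured 394 and 431 CPM in NC, 297 and 304 CPM at H1, 211 and 184 CPM at H1R1, 336 and 350 CPM at H1R6, and 162 CPM at H1R18. H4C2 measured 357 and 445 CPM in NC, 270 and 274 CPM at H1, 143 and 126 CPM at H1R1, 294 and 296 CPM at H1R6, and 67.7 CPM at H1R18. H4C3 kept the largest share of its NC level at H1R1 among the 44 members whose log2 CPM averaged 3 or more (55.8%), and H4C2 the smallest H4 share (33.5%). At H1R1 H4C3 changed by -0.84 (SE 0.07, edgeR adjusted p = 1.1e-10) and H4C2 by -1.57 (SE 0.092, edgeR adjusted p = 2.6e-14). At H1R6 H4C4 changed by -0.27 (SE 0.078, edgeR adjusted p = 0.032). All 12 genes of the 4 classes were called lower than NC at each of the 4 times. Over all genes tested, 1.77% were lower at H1, 9.53% at H1R1, 4.03% at H1R6 and 6.43% at H1R18.

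**Figure D2:**
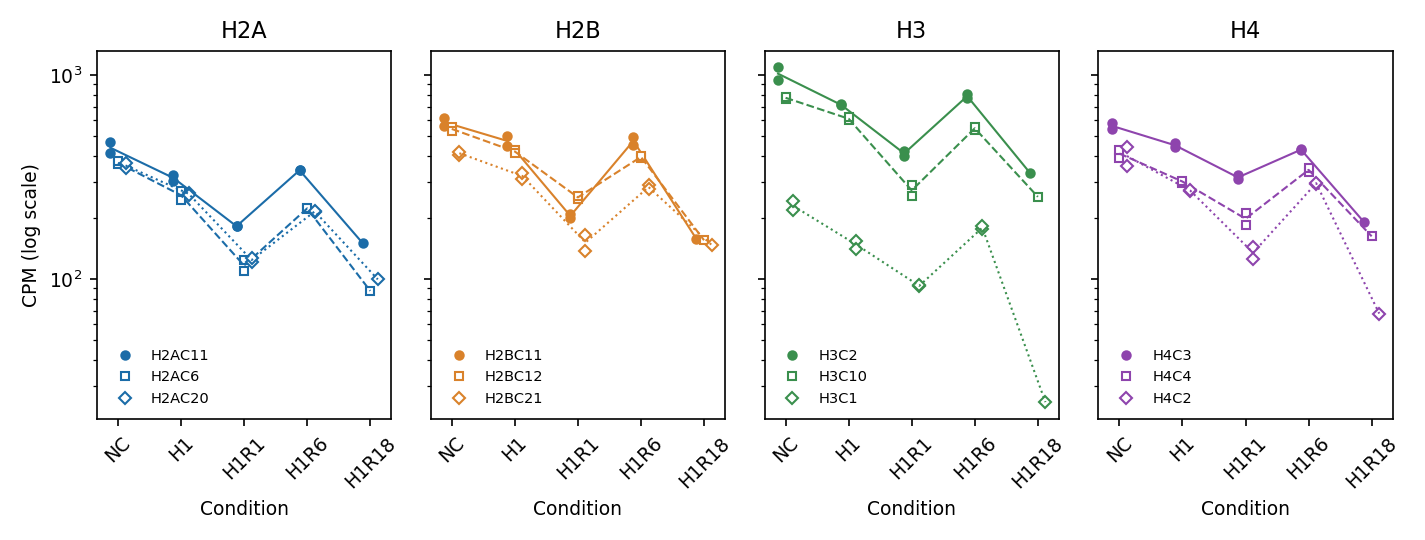
Level in each library (CPM, log scale) of the 3 genes of each class with the highest CPM, 1 point per library with lines through the condition means. The genes fall to H1R1, stand higher at H1R6 and fall again at H1R18, where H3C1 and H4C2 drop furthest, to 24.9 and 67.7 CPM.

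After 1 h at 43 °C, 33 of 53 members were lower than in NC and 0 were higher, where 1.77% of all genes tested were lower and 3.43% were higher. By edgeR's unadjusted p under 0.05 the counts were 40 lower and 0 higher, and DESeq2 called 28 and 0. The median log2 fold change of the members was -0.50, against -0.0052 over all genes tested. Called lower were 9 of 15 H2A, 11 of 16 H2B, 6 of 10 H3 and 7 of 12 H4 genes. H3C13 measured 67.4 and 73.5 CPM at H1, against 137 and 124 CPM in NC (log2 fold change -0.89, SE 0.11, edgeR adjusted p = 5.7e-07), with 48.7% of its 100-base windows unique among the annotated transcripts. H2AC12 measured 198 and 190 CPM at H1, against 297 and 347 CPM in NC (-0.73, SE 0.083, adjusted p = 2.7e-07 from edgeR). H4C16, the lone H4 gene on chromosome 12, measured 68.5 and 73.8 CPM at H1, against 105 and 126 CPM in NC (-0.69, SE 0.11, edgeR adjusted p = 8.7e-05). Without H1 replicate 1, 18 members were lower.

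H3C6 was chosen after its values were seen, because it departed from the other members. It had 12 and 6 counts at H1, against 36 and 34 in NC (log2 fold change -2.32, SE 0.45, edgeR adjusted p = 0.0012). At H1R1 it had 36 and 38 counts, which made it the 1 member called higher at H1R1 than at H1 (2.19, SE 0.45, edgeR adjusted p = 0.0014). Its level at H1R1 was not distinguishable from NC (log2 fold change -0.13, SE 0.38). These counts are low, and the call of the rise was lost without H1 replicate 2 and where at least 10 counts in every library were required. The stem-loop sequence of H3C6, shown above, was found in no other member.

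After 1 h of recovery, 45 of 53 members were lower than in NC and 0 were higher, where 9.53% of all genes were lower and 10.7% were higher. H3C11, 1 of these 45, had 0 counts in both H1R1 libraries and 4 and 12 in NC, where its highest count lay. Its call rests on few counts, and it was named after its values were seen. Scaling by library size alone turned the split of all genes to 2487 lower and 1821 higher, from 2015 and 2254, and left the members at 45 and 0. By an unadjusted p under 0.05 from edgeR 46 were lower and 0 higher, and DESeq2 called 43 and 0. The median log2 fold change was -1.30 over the members and -0.011 over all genes. Among the 44 members whose log2 CPM averaged 3 or more, levels were 25.3% to 55.8% of NC, with a median of 40.9%. H2BC8 measured 6.68 and 8.44 CPM at H1R1, against 30.6 and 29.2 CPM in NC (log2 fold change -2.00, SE 0.24, edgeR adjusted p = 2.8e-07). H2AC16 measured 39.4 and 47.4 CPM at H1R1, against 139 and 151 CPM in NC (-1.75, SE 0.13, edgeR adjusted p = 4.4e-12). H2BC18 measured 89.4 and 99.4 CPM at H1R1, against 307 and 298 CPM in NC (-1.69, SE 0.086, edgeR adjusted p = 9.8e-16).

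From H1 to H1R1, the members fell further. At H1R1, 41 of 53 were lower than at H1 and 1, H3C6, was higher, where 5.08% of all genes were lower and 6.35% higher, and the members' median log2 fold change was -0.79. Scaled by library size alone, 1342 of all genes were lower and 1028 higher, in place of 1074 and 1343, and 44 members were lower and 1 higher. H2AC14 measured 4.68 and 7.27 CPM at H1R1, against 17.8 and 14.1 CPM at H1 (-1.45, SE 0.33, edgeR adjusted p = 0.0037). H2AC19 measured 3.84 and 5.86 CPM at H1R1, against 17.5 and 8.30 CPM at H1 (-1.43, SE 0.35, edgeR adjusted p = 0.0059). H2BC8 changed by -1.36 (SE 0.25, edgeR adjusted p = 0.00035). Windows unique to the gene were 19.1% for H2AC14 and 3.23% for H2AC19, which leaves their counts uncertain. The part of each gene that gave the counts was not tested. H4C12, with no unique window, held 1272 counts in total.

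Between 1 h and 6 h of recovery the direction turned for all classes. At H1R6, 44 of 53 members were higher than at H1R1 and 0 were lower, where 6.43% of all genes were higher and 8.93% lower. Scaled by library size alone, 1946 of all genes were higher and 1177 lower, in place of 1360 and 1888, and 45 members were higher. No member was lower at an unadjusted p under 0.05 from edgeR, and DESeq2 called 42 higher and 0 lower. The median log2 fold change was 1.01 over the members and -0.0144 over all genes. H2BC8 measured 22.3 and 32.0 CPM at H1R6, against 6.68 and 8.44 CPM at H1R1 (1.86, SE 0.24, edgeR adjusted p = 1.3e-06). H2AC17 measured 22.3 and 21 CPM at H1R6, against 6.52 and 5.63 CPM at H1R1 (1.82, SE 0.26, edgeR adjusted p = 5.8e-06), with 71% of its exonic bases shared with H3C12. H3C7 measured 15.5 and 20.5 CPM at H1R6, against 5.68 and 5.63 CPM at H1R1 (1.67, SE 0.28, edgeR adjusted p = 5.7e-05).

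Against NC, the return at H1R6 was incomplete for some members and not distinguishable from NC for others. At H1R6, 24 of 53 were lower than in NC and 1 was higher, where 4.03% of all genes were lower and 3.0% higher, and the median log2 fold change was -0.32. H4C11 measured 24.7 and 27.8 CPM at H1R6, against 57.9 and 35 CPM in NC (-0.84, SE 0.20, edgeR adjusted p = 0.0061), with 22.3% of its windows unique. H2AC20 (-0.75, SE 0.077) and H2AC6 (-0.74, SE 0.081) came next, at 59.5% and 59.7% of NC. In contrast, H2AC4 measured 153 and 156 CPM at H1R6, against 155 and 170 CPM in NC (-0.071, SE 0.09, edgeR adjusted p = 0.75). The member called higher, H4C15, measured 128 and 116 CPM at H1R6, against 90.5 and 101 CPM in NC (0.35, SE 0.11, edgeR adjusted p = 0.046), with 2.9% of its windows unique. DESeq2 called 19 lower and 0 higher. The count of lower members was 12 without NC replicate 2, 14 without H1R6 replicate 1 and 11 without H1R6 replicate 2, and H4C15 was also not called without NC replicate 1, H1 replicate 1, H1 replicate 2, H1R6 replicate 1 or H1R6 replicate 2. Without NC replicate 2, 2 members were higher.

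At 18 h of recovery, members were low again, and more unevenly. In the H1R18 library, 42 of 53 were lower than in NC and 0 were higher, where 6.43% of all genes were lower and 4.58% higher. By an unadjusted p under 0.05 from edgeR 45 were lower and 0 higher, and DESeq2 called 40 and 0. The median log2 fold change was -1.57, or -1.53 with the 3 members at 0 in the H1R18 library set to a floor of 3 counts, against -0.0313 over all genes. Against H1R6, 40 were lower and 0 higher, where 7.65% of all genes were lower and 6.28% higher, with a median of -1.38, or -1.36 with the floor. No member was higher than at H1R6 at an unadjusted p under 0.05 from edgeR, and DESeq2 called 39 lower and 0 higher.

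**Figure D3:**
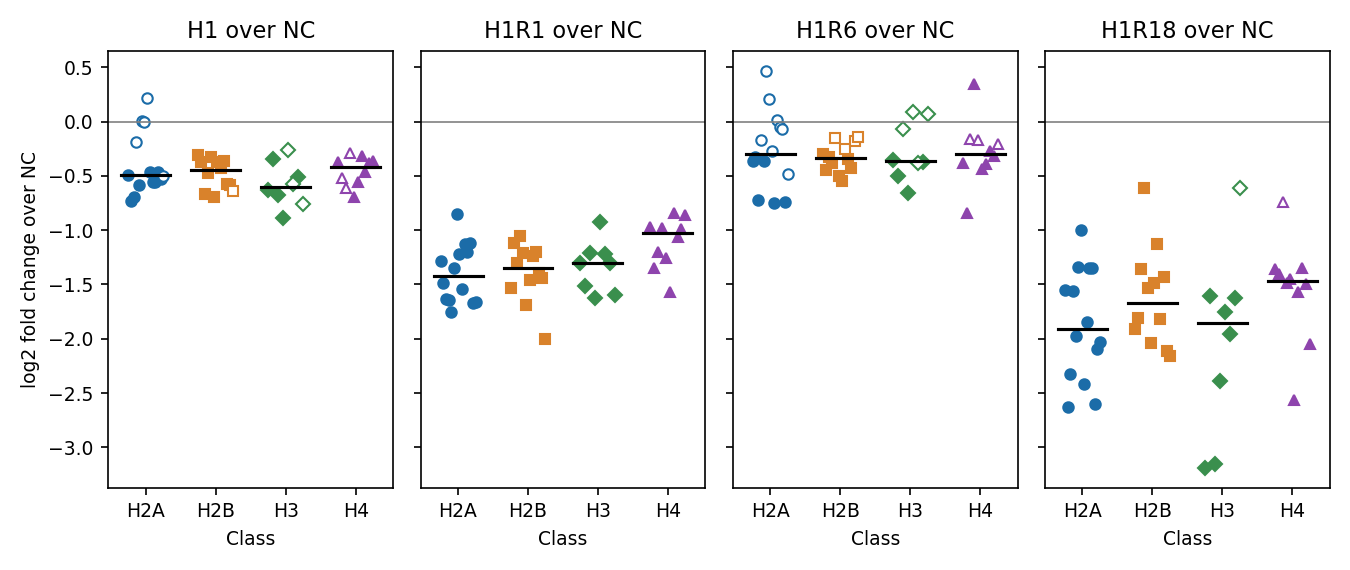
Log2 fold change over NC of the 44 members whose log2 CPM averaged 3 or more, by class, at each time. Filled symbols passed an adjusted p under 0.05, open ones did not, and bars are class medians. All 44 lie below 0 at H1R1 and at H1R18, where they range from -3.19 to -0.61.

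Among the 44 members whose log2 CPM averaged 3 or more, the 4 with the lowest fold changes at H1R18 were H3 and H2A genes, closely followed by H4C2 (-2.56, SE 0.13). H3C1, with 24.9 CPM at H1R18, against 217 and 240 CPM in NC, changed by -3.19 on the log2 scale (SE 0.15, edgeR adjusted p = 4.8e-16). H3C12 measured 12.3 CPM at H1R18, against 103 and 116 CPM in NC (-3.15, SE 0.19, edgeR adjusted p = 1.2e-13), with 40.3% of its exonic bases shared with H2AC17. H2AC12 measured 51.8 CPM at H1R18, against 297 and 347 CPM in NC (-2.63, SE 0.13, edgeR adjusted p = 1.1e-15). H2AC4 measured 26.7 CPM at H1R18, against 155 and 170 CPM in NC (-2.60, SE 0.15, edgeR adjusted p = 4.6e-14). These 4 genes and H4C2 stood at 10.9% to 16.9% of NC.

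At the other end, several members were close to or above their own H1R1 level. H2BC15 measured 82.4 CPM at H1R18, against 123 and 129 CPM in NC (-0.61, SE 0.13, edgeR adjusted p = 0.0019), and 55.6 and 66.3 CPM at H1R1. H3C7 measured 11.3 CPM at H1R18, against 16.7 and 17.7 CPM in NC (-0.61, SE 0.33, edgeR adjusted p = 0.27). H4C12 measured 23.1 CPM at H1R18, against 31.4 and 46.4 CPM in NC (-0.74, SE 0.25, edgeR adjusted p = 0.052), and none of its windows is unique. H4C12 was named after its values were seen. Over the 44 members, the levels at H1R18 ran from 10.9% to 65.5% of NC with an SD of 0.58 on the log2 scale, against an SD of 0.27 at H1R1. The H1R18 values come from 1 library and the H1R1 values are means of 2, and the part of this in the spread was not tested.

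**Figure D4:**
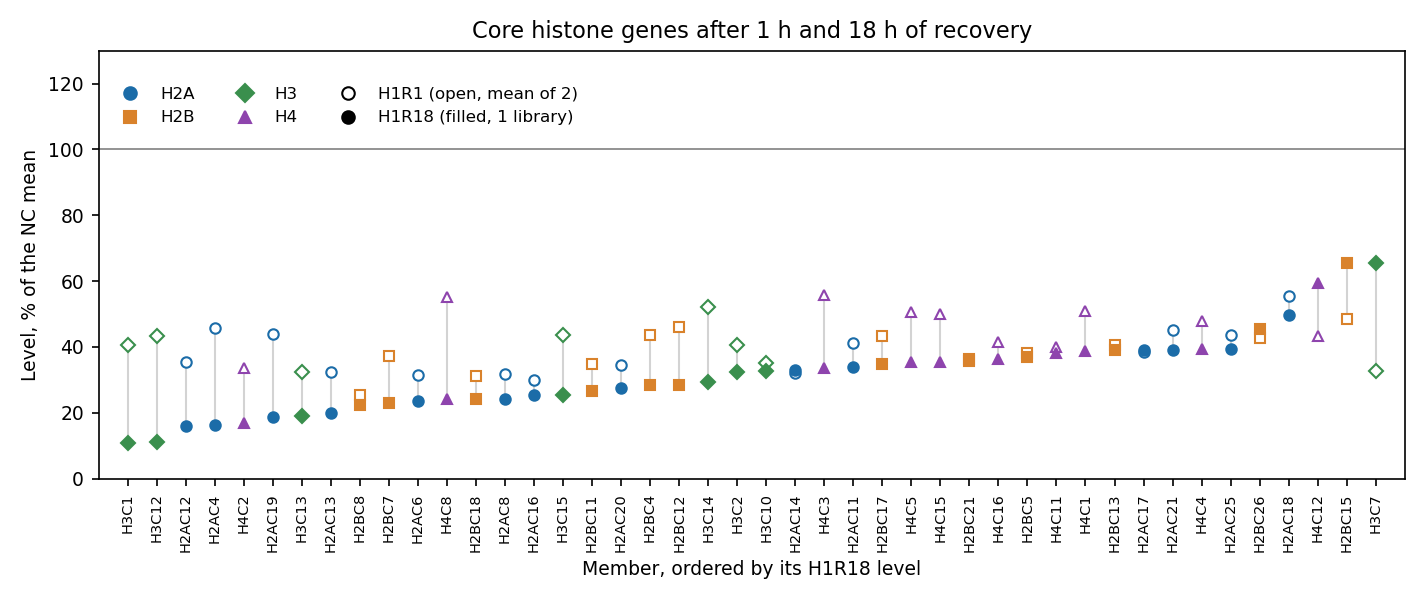
Level as a percentage of the NC mean for 44 members, ordered by H1R18, with open symbols for H1R1 (mean of 2 libraries) and filled symbols for H1R18 (1 library). H1R1 levels lie between 25.3% and 55.8%, while H1R18 levels run from 10.9% (H3C1) to 65.5% (H3C7).

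Genes that lie side by side differed in these H1R18 levels. In order along the chromosome, 5 members follow one another on chromosome 6 (GRCh38) from H3C1 to H2AC4. H3C1 (chr6:26020451-26020958) stood at 10.9% of NC at H1R18, H4C1 (chr6:26021649-26022050) at 38.9%, H4C2 (chr6:26025952-26027283) at 16.9%, H3C2 (chr6:26031589-26032099) at 32.5% and H2AC4 (chr6:26033092-26033618) at 16.4%. At H1R1 the same genes stood at 40.6%, 50.9%, 33.5%, 40.6% and 45.8%. Another example is a divergent H2A and H2B pair of the second block. H2AC12 (chr6:27147106-27147562) stood at 16.1% at H1R18, and its neighbour H2BC12 (chr6:27146361-27146855) at 28.5%. H2AC13 and H2BC13 stood at 20% and 39%, and H2AC20 and H2BC21 at 27.6% and 35.6%. Other divergent pairs were closer, with 24.3% and 22.3% for H2AC8 and H2BC8, and 23.6% and 28.3% for H2AC6 and H2BC4. H2AC17 and H2BC17 stood at 39.1% and 34.7%, and H2AC25 and H2BC26 at 39.3% and 45.5%.

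Larger stretches of the genome differed little in their sums. Members lay in a cluster of 11 on chromosome 1 (chr1:149782689-149887965), a pair on the same chromosome (chr1:228456979-228460470), 49 genes on chromosome 6 (chr6:25726063-27893891), and single genes on chromosomes 12 (H4C16) and 21 (H2BC12L). The widest gap within the chromosome 6 genes, 840259 bases between H4C8 and H2BC11, separates a first block of 29 from a second of 20. At H1R1, summed CPM were 38% of NC in the chromosome 1 cluster, 43.2% in the pair, 43.6% in the first block and 38.7% in the second, and H4C16 stood at 41.6%. At H1R18 the sums were 30.8%, 42%, 29.3% and 30.1% of NC in the same order, and H4C16 stood at 36.4%. The pair, H2AC25 and H2BC26, had the highest sum at H1R6 also, 91.3% of NC. H2BC12L, with 7.34 and 6.78 CPM in NC and no unique window, was called in no comparison.

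Between the 4 classes, H4 kept more of its NC level at H1R1. Summed CPM of H4 were 1198 and 1171 at H1R1, against 2312 and 2568 in NC, which is 48.5% of the NC mean. The shares kept were 37.6% for H2A, 39.6% for H2B and 39% for H3. H4 made up 27.9% and 26% of the summed member level at H1R1, against 22.5% and 23% in NC, and 23.4% to 23.9% in the other libraries. Called lower than NC at H1R1 were 14 of 15 H2A, 12 of 16 H2B, 9 of 10 H3 and 10 of 12 H4 genes, and at H1R18 14, 12, 7 and 9. Called higher at H1R6 than at H1R1 were 13, 13, 8 and 10. Beside these class counts, 9.53% of the whole set of genes tested were called lower than NC at H1R1. For the H1R18 library this share was 6.43%. A rise from H1R1 to H1R6 was called for 6.43% of the whole set. Class medians of the log2 fold change at H1R1 were -1.47 for H2A, -1.41 for H2B, -1.30 for H3 and -0.98 for H4. At H1R18 they were -1.85, -1.67, -1.86 and -1.43 in the same order, and the summed level of H4 was 31.8% of NC, beside 27.6% for H2A, 32.8% for H2B and 28.9% for H3. At H1R6 the classes stood at 76.5% to 81.6% of NC. Differences between classes are descriptions of these sums and carry no test.

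Features of the sequence ran with class. At H1R1, the 21 tested members with ATTTGCAT in the promoter window had a median log2 fold change of -1.47, and the 26 tested members with a window that lacks it had -1.22. At H1R18 the medians were -1.85 and -1.44. No H4 window holds this motif, so these medians also set classes against each other. Within H2A, the median at H1R1 was -1.50 for 10 tested members with it and -1.21 for 4 without it, and at H1R18 -1.71 and -1.83. Within H2B, it was -1.46 for 11 with it and -1.27 for 4 without it at H1R1, and -1.91 and -1.24 at H1R18. Many of the H2A windows with the motif share it with the window of an H2B neighbour, as given above. These medians are descriptions of few genes and carry no test. The 29 tested members with a stem-loop in the annotated transcript had a median of -1.26 at H1R1, and the 24 without one had -1.32. Members with over 1000 exonic bases had a median of -1.26, and the others -1.30. The 33 tested members with at least 95% unique windows and under 10% shared bases had a median of -1.30, and the 20 others -1.22.

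Calls among genes that act on histone mRNAs went in each direction, and at H1 and H1R1 they were in total near the share of all genes. In a list of 32 tested genes of histone mRNA transcription and 3′ end processing, 1 was called at H1 (higher than NC), 7 at H1R1 (2 lower and 5 higher), 3 at H1R6 (all higher) and 7 at H1R18 (2 lower and 5 higher). Over all genes tested, 9.53% were lower and 10.7% higher at H1R1, and 6.43% lower and 4.58% higher at H1R18. At H1, 1.77% of all genes were lower and 3.43% higher, and at H1R6 4.03% and 3.0%. The list's median log2 fold change at H1R1 was 0.11. SLBP, which binds the stem-loop, was called at none of these times and measured 104 and 105 CPM in NC, 109 and 121 CPM at H1, 106 and 101 CPM at H1R1, 117 and 97.4 CPM at H1R6, and 89 CPM at H1R18. LSM11, a subunit of the U7 particle, measured 41.6 and 41.3 CPM at H1R1, against 56.7 and 54.3 CPM in NC (log2 fold change -0.42, SE 0.13, edgeR adjusted p = 0.024). SRRT, which works with the nuclear cap-binding complex, measured 254 and 228 CPM at H1R1, against 156 and 140 CPM in NC (0.70, SE 0.09, edgeR adjusted p = 3.6e-07). PAPOLA, a poly(A) polymerase, was higher at H1, H1R1 and H1R6, by 0.29, 0.39 and 0.27. HINFP, a transcription factor of H4 genes, measured 41.1 CPM at H1R18, against 23.7 and 26.1 CPM in NC (0.73, SE 0.22, edgeR adjusted p = 0.026).

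Replacement histones, which are made outside S phase as well, were called in both directions over the 4 times. Of 10 tested, 2 were called at H1R1 (both higher than NC), 2 at H1R6 (1 lower and 1 higher) and 5 at H1R18 (all lower). Over all genes tested, 10.7% were higher at H1R1, 4.03% lower and 3.0% higher at H1R6, and 6.43% lower at H1R18. None was called at H1 by edgeR, where 1 had an unadjusted p under 0.05, and DESeq2 called 0. H3-3B, an H3.3 gene, measured 354 and 307 CPM at H1R1, against 240 and 265 CPM in NC (0.39, SE 0.08, edgeR adjusted p = 0.00075). At H1R18 it measured 168 CPM (-0.59, SE 0.11, edgeR adjusted p = 0.00029). H2AZ1 changed by -0.29 at H1R6 and -0.50 at H1R18, and H2AX by 0.30 and -0.42, all called. The list's median log2 fold change at H1R18 was -0.37, beside -1.57 for the members. Of 19 tested histone chaperones and assembly factors, 2 were called at H1 (1 in each direction) and 5 at H1R1 (all higher). At H1R6 3 were called (2 lower and 1 higher), and at H1R18 6 (5 lower and 1 higher). Of all genes, 1.77% were lower and 3.43% higher at H1, and 10.7% were higher at H1R1. At H1R6 4.03% were lower and 3.0% higher, and at H1R18 6.43% and 4.58%. The lower ones at H1R18 included ASF1B, an H3 and H4 chaperone, with 59.5 CPM at H1R18, against 107 and 108 CPM in NC.

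Linker histone genes divided at 18 h. Of 7 tested, 5 were called at H1 and at H1R1, all lower than NC, with medians of -0.68 and -1.61, where 1.77% of all genes were lower at H1 and 9.53% at H1R1. At H1R6 2 were called, both lower, and at H1R18 3 were lower and 2 higher, where 4.03% of all genes were lower at H1R6 and 6.43% lower and 4.58% higher at H1R18. H1-4, a replication-dependent linker gene, measured 592 CPM at H1R18, against 1466 and 1613 CPM in NC (log2 fold change -1.38, SE 0.09, edgeR adjusted p = 3.7e-13). H1-10, a replacement linker gene, measured 359 CPM at H1R18, against 149 and 146 CPM in NC (1.28, SE 0.10, edgeR adjusted p = 5.3e-11). At H1R1 H1-10 was lower than NC, with a log2 fold change of -0.53.

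Genes of DNA replication were called in both directions, with most of the lower calls at 18 h of recovery. Of 27 tested S phase genes, 2 were lower and 6 higher than NC at H1R1, with a median log2 fold change of 0.0065, and 15 were lower and 1 higher at H1R18, with a median of -0.30. Over all genes tested, 9.53% were lower and 10.7% higher at H1R1, and 6.43% lower and 4.58% higher at H1R18. At H1 1 was called, higher than NC, and at H1R6 5 were lower and 2 higher. Of all genes, 3.43% were higher at H1, and 4.03% were lower and 3.0% higher at H1R6. PCNA, the replication clamp, measured 164 CPM at H1R18, against 235 and 256 CPM in NC (-0.58, SE 0.11, edgeR adjusted p = 0.00036), and 227 and 207 CPM at H1R1. CDC6, a replication licensing factor, measured 193 and 162 CPM at H1R1, against 109 and 124 CPM in NC (0.62, SE 0.10, edgeR adjusted p = 2.3e-05), and 75.2 CPM at H1R18. CCNE1, cyclin E1, was higher by 0.76 at H1 and by 1.09 at H1R1. The summed level of the 27 genes was 4942 and 4875 CPM in NC, 5092 and 5124 CPM at H1R1, and 3960 CPM at H1R18. The part of a changed share of S phase cells in the members' levels was not tested.

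**Figure D5:**
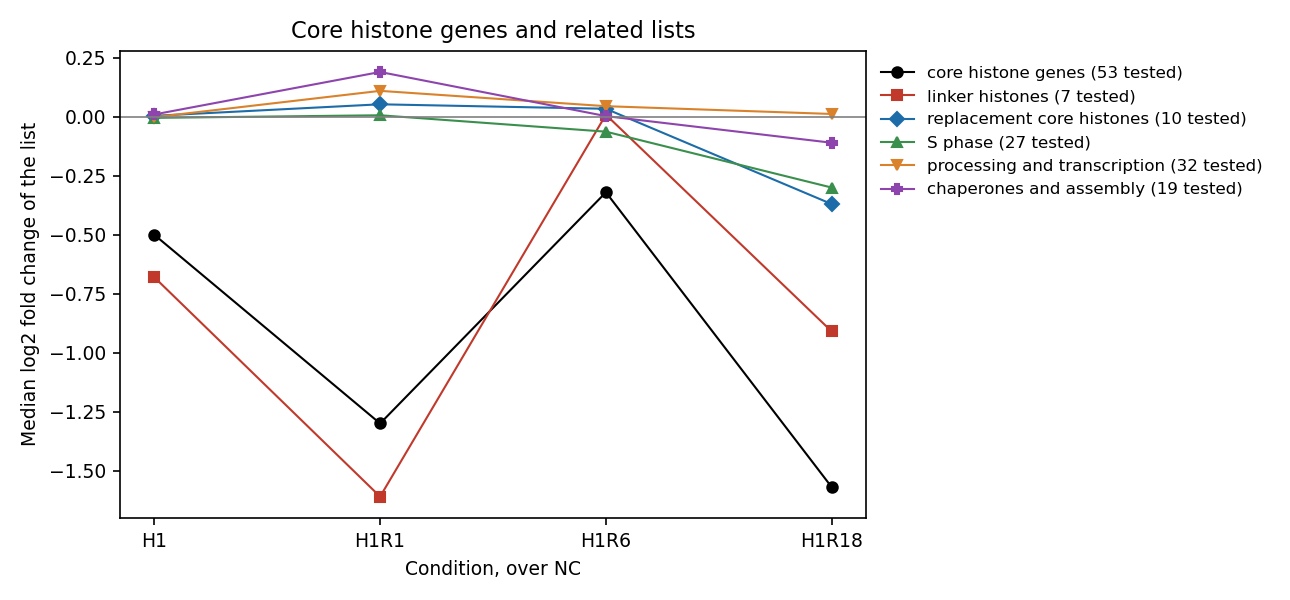
Median log2 fold change over NC at each time for the core histone genes and 5 related lists, with the number of genes tested. At H1R1 the core and linker histone medians lie at -1.30 and -1.61 and those of the other lists between 0.0065 and 0.19. The S phase and replacement lists lie below 0 at H1R18 (-0.30 and -0.37).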

How the data were processed

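RNA was measured in 9 libraries of HEK293T cells, grouped by their labels. The authors deposited counts per gene: reads were trimmed with cutadapt 4.1, aligned to GRCh38 with HISAT2 2.2.1 and counted on Ensembl 104 exons with featureCounts 2.0.2, as the file header and the submitters' processing notes say. Each read of a pair was counted, without strand, so overlapping genes on opposite strands cannot be told apart. Reads that map to several places or genes were not counted, which lowers near-identical copies and makes their counts uncertain. Exon length, another deposited column in bases, was used for levels per kb. All count columns were mapped to samples (0 left over).

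edgeR's filterByExpr (count 10, total 15) kept 21139 of 60664 genes. It turns the count into CPM at the median depth and asks for it in 1 library, the size of the smallest condition. A gene can thus pass with fewer counts in a shallower library, as H2BC10 did with at most 8. edgeR 4.0.16 (R 4.3.3) with TMM scaling fitted 1 coefficient per condition over all 9 libraries (biological coefficient of variation 0.0905, prior df 26), with Benjamini-Hochberg adjustment over all genes tested. Alternatives were DESeq2 1.42.0, other scalings and filters, a replicate block, halved counts, a fit on the compared conditions only and leaving out each library. Members were taken by current symbol (60463 of 60664 IDs had one, 2 members through an older symbol). The members and lists were chosen with earlier results of these data known. Named were the 3 members per class with the highest CPM, the 3 largest called changes each way per comparison among members whose log2 CPM averaged 3 or more, members called higher than NC, and untested members; those with over 1000 exonic bases could also be named. Sequences came from GENCODE 29 and RefSeq. Tested on simulated data for H1R1 against NC over 21139 genes, the fit recovered 94% of 50 genes at a fold of 0.35 and 20% at 0.7. For H1R18 against NC the shares were 74% and 10%. Depth was 3814195 to 6221613 counts per library. Values of 1 listed gene are not reported here.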

Additional observations from a re-analysis of the deposited data

Results flagged for a closer look

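Counts of members changed direction between consecutive times, and each difference was tested in the fit itself. At H1R1, 41 of 53 tested members were lower than at H1 and 1, H3C6, was higher, where 5.08% of all genes were lower and 6.35% higher. At H1R6, 44 of 53 were higher than at H1R1, where 6.43% of all genes were higher. At H1R18, 40 of 53 were lower than at H1R6, where 7.65% of all genes were lower. The leading members followed the same course, with log2 fold changes given for H1R1 over H1, H1R6 over H1R1 and H1R18 over H1R6 in that order. Among H2A genes, they were -0.79, 0.92 and -1.19 for H2AC11, -1.14, 0.93 and -1.34 for H2AC6, and -1.08, 0.79 and -1.11 for H2AC20. Among H2B genes, they were -1.22, 1.22 and -1.60 for H2BC11, -0.75, 0.66 and -1.36 for H2BC12, and -1.09, 0.91 and -0.94 for H2BC21. Among H3 genes, they were -0.79, 0.93 and -1.25 for H3C2, -1.17, 1.01 and -1.12 for H3C10, and -0.67, 0.95 and -2.84 for H3C1. Among H4 genes, they were -0.52, 0.45 and -1.18 for H4C3, -0.60, 0.79 and -1.08 for H4C4, and -1.01, 1.13 and -2.12 for H4C2. These comparisons share libraries with each other, and H1R18 is 1 library.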

How the results depend on the processing

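The count of members called lower ranged from 18 to 34 for H1 against NC and from 11 to 24 for H1R6 against NC when single libraries were left out, beside 33 and 24 with all of them. The count called higher for H1R6 against NC, 1 with all libraries, was 0 with the replicate block, 0 with DESeq2 and 0 to 2 when single libraries were left out. That for H1R1 against H1, also 1, was 0 where at least 10 counts in every library were required and 0 to 1 when single libraries were left out. The causes were not tested, beyond the smaller number of libraries when 1 was left out. Under all alternatives together, 235 counts of members stayed within 1.5 times the main count, 12 were lower and 1 was higher, and no called fold change turned its direction. The 235 include comparisons and directions with 0 members called in the main fit, where the count stayed 0. With the replicate block the counts lower than NC were 34 at H1, 45 at H1R1, 24 at H1R6 and 42 at H1R18. Deviations of same-numbered libraries correlated at -0.0331 to 0.0391 over 11586 genes. Between the paired libraries of a condition, the chi-square per degree of freedom was 1.59 to 2.14 over all genes. Much of each deviation can thus be counting noise, so these correlations cannot decide whether same-numbered libraries share a culture or batch. Scaling by library size alone changed no direction of the members. Low counts limit what can be said of the 11 untested members. Changes near 0.7-fold were seldom recovered in simulated data, whose changed genes were not matched to the members' counts. At H1 the median fold of the tested members was 0.706, and 33 of 53 were called lower than NC, where 1.77% of all genes were lower.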
